A study of Mus musculus with 8 samples.

Results

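Sebum is made in the sebaceous glands of the hair follicle, and 10 sebaceous gland lipid genes, namely Scd1, Scd3, Elovl3, Far2, Awat1, Awat2, Dgat2, Soat1, Mgst1 and Pparg, were followed in JunB cKO mice and their wild type controls. Besides enzymes of lipid synthesis they include the glutathione transferase gene Mgst1 and the nuclear receptor gene Pparg. The genes were chosen by name, from their known role in the gland and with earlier results of these data known, and each was found as 1 locus in each of 3 tables. These tables list 26457 gene loci for unperturbed keratinocytes, 47990 for hair plucking and 46726 for wounds. In unperturbed keratinocytes all 10 genes had a lower level in JunB cKO than in wild type, with a median log2 ratio of -1.03. Of the same genes, 4 days after hair plucking, 9 of 10 were lower, whereas in wounds at day 30 the order was turned and 9 of 10 were higher in JunB cKO, and the median log2 ratio was 0.71.

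All mice were C57BL/6. The wild type is labelled JunB +/+ and the JunB cKO is labelled JunB -/-, although Cre recombinase under the K14 promoter removes the floxed JunB alleles only from basal epidermal progenitors and the cells that descend from them, so that fibroblasts, adipocytes and leukocytes of the JunB cKO keep the gene. Unperturbed mice were 60 days old and untreated. In the hair plucking groups, back hair was removed at postnatal day 54 and skin was taken at day 58, 4 days later. Wounds were full thickness punches of the back, collected at day 30 after wounding, for which the age of the mice is not given in the sources used here. RNA of 3 samples of a group was pooled before each library was made. The labels list 1 unperturbed and 1 plucked library for each genotype and 2 wound libraries for each, but each table holds 1 value per gene and genotype. No spread between animals or libraries can therefore be given, no test was possible, and every difference describes the sequenced pools.

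Sebocytes are epithelial cells that fill with lipid droplets and burst to release their content onto the hair. Mouse sebum is rich in wax diesters, cholesterol esters and triglycerides. Its synthesis begins with fatty acids, which are elongated and desaturated, partly reduced to fatty alcohols, and then joined to alcohols, diacylglycerol or cholesterol by acyltransferases. PPARγ, a nuclear receptor that is activated by lipids, is needed for sebocytes to mature, and it is also the central regulator of adipocytes. Several of these genes, above all Scd1, Dgat2 and Pparg, are used by adipocytes as well as by sebocytes, and Mgst1 is made in many cell types.

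Scd1 and Scd3 lie in a cluster of 4 stearoyl-CoA desaturase genes on chromosome 19 and resemble each other so much that reads can fit both. Their coding sequences were identical at 974 of 1065 aligned bases (91.5%), and 111 of 916 windows with the length of a read (75 bases) had no difference. Of all words of 75 bases in the reference transcript, 3.24% for Scd1 and 3.25% for Scd3 also occurred in another gene, and 0% for each of the other 8 genes. The following window is the same in both genes, at chr19:44401791-44401865 on the minus strand for Scd1 and at chr19:44235804-44235878 on the plus strand for Scd3, in GRCm38. It is shown because a read from it cannot be assigned.
Scd1 and Scd3: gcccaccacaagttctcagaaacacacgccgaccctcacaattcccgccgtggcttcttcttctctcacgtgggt
The window with the most differences, 19 of 75 bases, starts at coding base 295 of Scd1 and 307 of Scd3, and spans an intron in both. It is shown because reads from such windows separate the 2 genes, and the differing bases are in capitals.
Scd1: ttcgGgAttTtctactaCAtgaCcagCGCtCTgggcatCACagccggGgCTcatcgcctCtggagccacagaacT
Scd3: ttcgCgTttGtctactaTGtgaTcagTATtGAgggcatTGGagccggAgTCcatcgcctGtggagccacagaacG
Most of each transcript can thus be told apart, but the share of reads that the authors' software divided between both genes is not known from the tables. Awat1, Awat2 and Dgat2, which belong to another family of related enzymes, were less alike, with 64.4% identical aligned coding bases for Awat1 and Awat2, 63.2% for Awat1 and Dgat2 and 61.5% for Awat2 and Dgat2.

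JunB is a subunit of AP-1, which binds the letters TGACTCA. In the RefSeq promoters of GRCm38.p6, from 250 bases before to 50 bases after the start, 11 promoters of 7 of the 10 genes were found (Scd1, Dgat2 and Elovl3 were not in the table). TGACTCA or its reverse complement TGAGTCA was in 0 of these 11 promoters and in 5.20% of all 32851 promoters. The CRE letters TGACGTCA were in 0 of 11 and in 1.79% of all. The nuclear receptor half-site AGGTCA, searched on both strands like the other motifs, was in 2 of 11, both at Pparg, and in 16.3% of all promoters. CCAAT or its reverse complement ATTGG was in 6 of 11, which belong to 4 genes, and in 37.4% of all. No 2 matches overlapped. These are matches of letters and show neither binding nor its absence. The promoters of the wax ester enzymes Awat1 (chrX:100571997-100572296, plus strand) and Awat2 (chrX:100412538-100412837, minus strand, the start nearest to the coding part) and of Scd3 (chr19:44203038-44203337, plus strand) are shown, since these 3 genes had the lowest ratios in unperturbed keratinocytes. ATTGG is in capitals.
Awat1: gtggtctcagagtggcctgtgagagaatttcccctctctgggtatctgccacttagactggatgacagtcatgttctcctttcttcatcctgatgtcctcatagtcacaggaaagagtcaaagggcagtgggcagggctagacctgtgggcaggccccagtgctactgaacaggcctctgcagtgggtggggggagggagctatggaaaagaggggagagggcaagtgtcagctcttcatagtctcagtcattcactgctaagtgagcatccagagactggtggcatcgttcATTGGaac
Awat2: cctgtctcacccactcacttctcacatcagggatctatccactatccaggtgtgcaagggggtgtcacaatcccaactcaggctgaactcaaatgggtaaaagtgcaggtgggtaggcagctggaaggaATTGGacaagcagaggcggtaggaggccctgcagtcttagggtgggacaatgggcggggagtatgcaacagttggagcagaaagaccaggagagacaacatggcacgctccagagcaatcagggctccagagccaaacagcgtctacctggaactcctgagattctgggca
Scd3: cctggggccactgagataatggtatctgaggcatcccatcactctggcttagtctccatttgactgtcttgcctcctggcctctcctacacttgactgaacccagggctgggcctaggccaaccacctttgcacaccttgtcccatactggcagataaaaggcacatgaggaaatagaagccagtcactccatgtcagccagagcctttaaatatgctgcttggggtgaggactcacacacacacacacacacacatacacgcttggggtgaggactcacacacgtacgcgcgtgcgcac

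Gene coordinates are 1-based, in GRCm38, from GENCODE M21. Levels are given as FPKM, the authors' number of reads corrected for transcript length and library size, and differences as the log2 ratio log2((cKO + 0.1)/(WT + 0.1)), which understates the difference of genes with a low FPKM. Junb itself was lower in JunB cKO in each table, at 268 in wild type against 31.4 in JunB cKO in unperturbed keratinocytes, 40.8 and 11.7 after hair plucking, and 33.4 and 15.4 in wounds. The tables give no read counts, but short receptor genes come in steps of whole reads, from which the reads per FPKM and effective kilobase (transcript length less 200 bp) were estimated at 16.9 in wild type against 4.98 in JunB cKO in unperturbed keratinocytes, 16.3 and 12.9 after hair plucking, and 43.3 and 39.6 in wounds. The estimate for plucked wild type rests on 4 loci, and in wounds, where 2 libraries enter 1 value, only 60 of 77 loci in wild type and 19 of 25 in JunB cKO gave whole reads (within 0.05), so that read numbers are approximate there. A given FPKM thus stood for 3.39 times as many reads in unperturbed wild type as in unperturbed JunB cKO. The median FPKM of these receptor genes, which skin is not known to use, was 0.543 in unperturbed JunB cKO and 0 in each other column. Intervals in square brackets cover counting error only, at 95%, and not the spread between animals.

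Check of the labelled tissue against cell type markers showed that the 3 tables differ in what they hold. The labels give keratinocyte as the tissue of both the unperturbed and the plucked samples, but the plucked samples are called skin biopsy elsewhere in the labels. In unperturbed keratinocytes the keratinocyte markers Krt5 and Krt14 had 2592 and 1212 FPKM in the wild type column and 2690 and 1113 in the JunB cKO column, and 6 fibroblast markers summed to 13.7 in wild type against 12.5 in JunB cKO. After hair plucking the fibroblast markers summed to 5109 in wild type against 1856 in JunB cKO, and in wounds to 10532 and 13412, so that both held dermis. The tables were normalized separately, and levels were compared between genotypes within a table. In such bulk samples fewer cells of a type and less RNA per cell cannot be told apart.

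**Figure D1:**
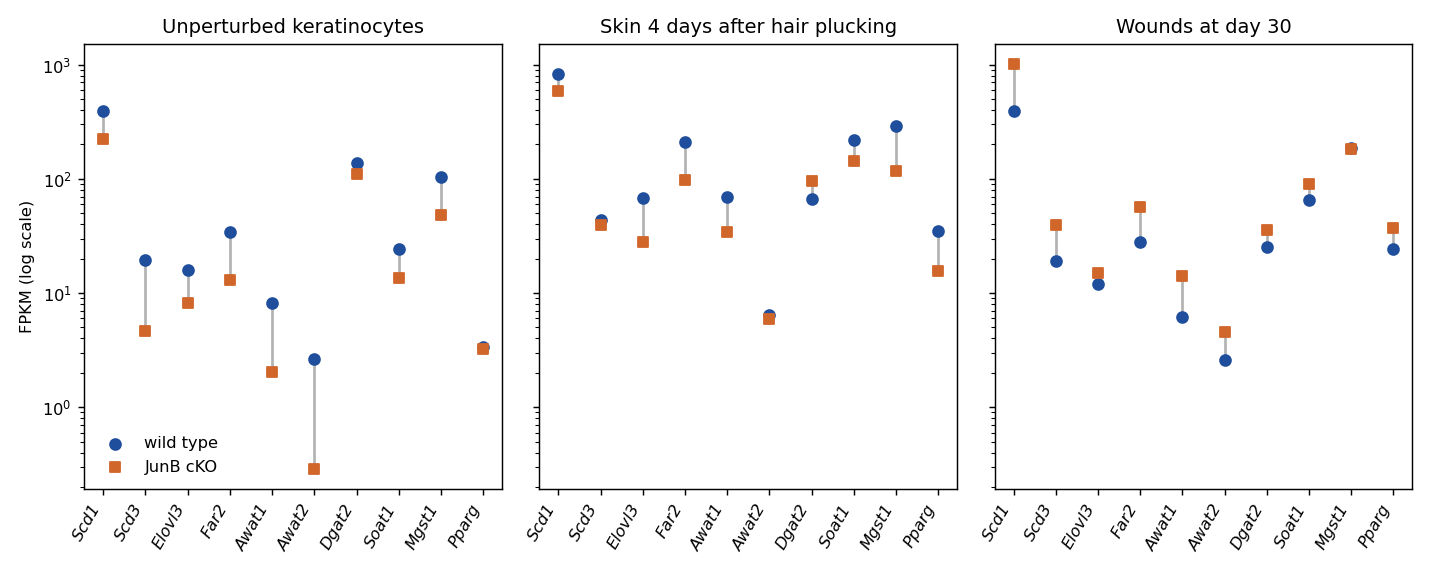
FPKM on a log axis of each of the 10 genes in wild type (blue circles) and JunB cKO (orange squares), 1 value per genotype, in the 3 tables. The squares lie below the circles for 10 genes in unperturbed keratinocytes and for 9 genes after hair plucking, and above them for 9 genes in wounds.

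Each of the 10 genes reached 1 FPKM in at least one genotype in each table, the limit used for the comparison with all loci. In unperturbed keratinocytes 5 of 10 genes were at least 2-fold lower in JunB cKO, against 2.37% of the 15973 loci with at least 1 FPKM in either genotype. None of the 10 was at least 2-fold higher, against 22.1% of all such loci, and 10 of 10 were lower by any amount, against 52.8%. Among loci with 10 to 100 FPKM, however, 79.6% were lower by any amount and 2.13% at least 2-fold lower. Of the genes followed, Scd3, Elovl3, Far2 and Soat1 fall in that band. The authors had already named Awat1, Awat2 and Scd3 as downregulated, and the genes were chosen with earlier results known. The counts are thus a description and do not set the genes apart from the rest. The median over loci with at least 1 FPKM in both genotypes was -0.17, and relative to this shift 4 of 10 genes were at least 2-fold lower and Pparg was higher. The part of the 3.39-fold difference in depth in these lower values was not tested. After hair plucking 5 of 10 genes were at least 2-fold lower, against 18.8% of 16932 loci, 0 of 10 at least 2-fold higher, against 21.3%, and 9 of 10 lower by any amount, against 48.7%. Relative to the mean of Krt5 and Krt14, which was lower in plucked JunB cKO by a log2 ratio of -0.26, 2 of 10 were at least 2-fold lower. The 2 scaling genes went opposite ways there, with Krt5 higher (log2 ratio 0.46) and Krt14 lower (-0.52). The sum of the 8 keratinocyte markers was higher in plucked JunB cKO, by a log2 ratio of 0.28. Whether the Krt5 and Krt14 scale follows the share of keratinocytes was not tested. In wounds 4 of 10 genes were at least 2-fold higher, against 9.03% of 17787 loci, 0 of 10 at least 2-fold lower, against 7.57%, and 1 of 10 was lower by any amount, against 48.5%. Relative to Krt5 and Krt14, whose mean differed by a log2 ratio of 0.33, 1 of 10 genes, Scd1, was at least 2-fold higher in wounds. Here Krt14 was higher in JunB cKO (log2 ratio 0.48), while Krt5 hardly differed (-0.02). The SD of the 10 log2 ratios was 0.84 in unperturbed keratinocytes, 0.61 after hair plucking and 0.44 in wounds. The order of the first 2 rests on the pseudocount, since with a pseudocount of 1 they were 0.57 and 0.60. Without Awat2 they were 0.67 and 0.61, or 0.58 and 0.60 with a pseudocount of 1. The counting interval of the ratio left out 0 for 9 of 10 genes in each table, with the exceptions Pparg in unperturbed keratinocytes, Awat2 after hair plucking and Mgst1 in wounds. It was not computed for other loci, so that no share of all loci can be set beside this count. Where reads are many it leaves out 0 even at small ratios, such as -0.12 for Scd3 after hair plucking.

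Scd1 (ENSMUSG00000037071.3, chr19:44394455-44407879, minus strand) codes for the stearoyl-CoA desaturase that makes oleate and palmitoleate, and it had the highest level of the 10 genes in each of the 6 columns. Its FPKM was 392 in wild type against 222 in JunB cKO in unperturbed keratinocytes, a log2 ratio of -0.82 [-0.86 to -0.78]. After hair plucking the values were 826 and 592, a log2 ratio of -0.48 [-0.50 to -0.46]. In wounds the level was 389.9 in wild type against 1009 in JunB cKO, a log2 ratio of 1.37 [1.36 to 1.38], the highest ratio of the 10 genes there. Scd1 was thus lower in JunB cKO by less than 2-fold in unperturbed and plucked samples and 2.59 times as high in wounds. Scd3 (ENSMUSG00000025202.8, chr19:44203269-44244016, plus strand), a desaturase found mainly in the sebaceous gland and the Harderian gland, stood at a lower level. Its FPKM was 19.4 in wild type, from about 1078 reads, against 4.66 in JunB cKO, from about 76 reads, in unperturbed keratinocytes, a log2 ratio of -2.03 [-2.42 to -1.73]. After hair plucking it was 43.3 and 39.8, a log2 ratio of -0.12 [-0.21 to -0.03], which became 0.14 when FPKM was taken relative to Krt5 and Krt14. In wounds it was 19.1 and 39.3, a log2 ratio of 1.04 [0.98 to 1.11]. Scd3 thus differed 4.16-fold between genotypes in unperturbed keratinocytes and little after hair plucking. The FPKM of Scd1 over that of Scd3 was close to the same in wild type in the 3 tables, at 20.2, 19.1 and 20.4, and in JunB cKO it was 47.7, 14.9 and 25.7, in the order unperturbed, plucked and wounds.

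By the FPKM as deposited, the other 2 desaturases of the cluster were not lower in JunB cKO in any table. Scd2, named for its coding identity of 90.3% with Scd1 and known mainly from other tissues such as brain, had an FPKM of 33.4 in wild type against 36.6 in JunB cKO in unperturbed keratinocytes, 21.4 and 38.9 after hair plucking, and 42.4 and 43.2 in wounds. It was higher in JunB cKO in each table, at log2 ratios of 0.13, 0.86 and 0.03, of which the last lies below the shift of 0.33 of Krt5 and Krt14 in wounds and so turns relative to them. Scd4 was low throughout, at 0.165 and 0.349 in unperturbed keratinocytes, 0.632 and 1.65 after hair plucking, and 1.92 and 2.32 in wounds, where its log2 ratio of 0.27 also lies below that shift.

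Elovl3 (ENSMUSG00000038754.5, chr19:46131897-46135694, plus strand) codes for an elongase of very long chain saturated and monounsaturated fatty acids in sebaceous gland and hair follicle. Its FPKM was 15.8 in wild type against 8.13 in JunB cKO in unperturbed keratinocytes, a log2 ratio of -0.95 [-1.40 to -0.56]. In plucked skin it was 68.0 and 27.98, a log2 ratio of -1.28 [-1.43 to -1.14]. Wounds had 12.1 and 14.9, a log2 ratio of 0.30 [0.15 to 0.44] that became -0.03 when FPKM was taken relative to Krt5 and Krt14. The difference in wounds was thus within the range set by the scaling. The unperturbed locus ran on to base 46148325 of chromosome 19 over Pitx3 on the other strand, while it ended at 46135307 in both other tables. Far2 (ENSMUSG00000030303.15, chr6:148047259-148182758, plus strand), which codes for a reductase that turns fatty acids into the fatty alcohols of waxes, was more than 2-fold apart in each table. It stood at 34.0 in wild type against 13.02 in JunB cKO in unperturbed keratinocytes, a log2 ratio of -1.38 [-1.59 to -1.18]. After hair plucking it had 210.5 and 97.6, a log2 ratio of -1.11 [-1.16 to -1.06]. In wounds it had 27.9 and 56.9, a log2 ratio of 1.03 [0.97 to 1.08]. Far2 and Awat1 were the only genes of the 10 past the 2-fold limit in each of the 3 tables, though not in plucked skin and wounds when FPKM was taken relative to Krt5 and Krt14, and Awat1 after hair plucking was at -0.98 with a pseudocount of 1. The Far2 locus of the authors was longer than the gene, and reached base 148444352 of chromosome 6 in unperturbed keratinocytes, 148444389 after hair plucking and 148215731 in wounds. It covered Ergic2 on the other strand and 4732416N19Rik on the same strand in each table. In the first 2 tables it also covered, among others, Tmtc1 on the other strand and the pseudogene Rps4l on the same strand. The FPKM of Far2 may thus hold reads of neighbours in each table.

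Awat1 (ENSMUSG00000015665.8, chrX:100572251-100578205, plus strand) and Awat2 (ENSMUSG00000031220.14, chrX:100402221-100442717, minus strand) lie close to each other on chromosome X and code for acyl-CoA wax alcohol acyltransferases, which join fatty acids to fatty alcohols and are made almost only in the sebaceous gland. Awat1 had an FPKM of 8.12 in wild type, from about 163 reads, against 2.02 in JunB cKO, from about 12 reads, in unperturbed keratinocytes, a log2 ratio of -1.96 [-2.98 to -1.16]. After hair plucking the FPKM was 69.0 and 34.4, a log2 ratio of -1.001 [-1.15 to -0.86], just past the 2-fold limit. In the wound table it was 6.19 and 14.2, a log2 ratio of 1.18 [1.001 to 1.39]. Awat1 was thus 4.03-fold lower in unperturbed JunB cKO and 2.29 times as high in wounds of JunB cKO. Awat2 had the lowest level of the 10 genes in each column. Its FPKM was 2.63 in wild type against 0.288 in JunB cKO in unperturbed keratinocytes, from about 63 and about 2 reads, a log2 ratio of -2.82 [-6.29 to -1.30]. After hair plucking it was 6.40 and 5.91, a log2 ratio of -0.11 [-0.49 to 0.25], which turned to 0.15 relative to Krt5 and Krt14. At day 30 of wounding it was 2.58 and 4.57, a log2 ratio of 0.80 [0.53 to 1.12]. The unperturbed difference of Awat2, the lowest ratio of the 10 genes, thus rests on about 2 reads in JunB cKO and a level under the receptor gene median of 0.543 in that column, and no difference was detectable at this depth after hair plucking. The Awat2 locus of the unperturbed table ended at base 100412562, that of the other tables at 100442717, where a more distant start lies. Awat1 stood 3.09 times as high as Awat2 in unperturbed wild type and 7.0 times in JunB cKO, 10.8 and 5.82 times after hair plucking, and 2.40 and 3.10 times in wounds.

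Dgat2 (ENSMUSG00000030747.5, chr7:99153658-99182719, minus strand), which codes for a diacylglycerol acyltransferase that makes triglycerides in sebocytes, adipocytes and liver, did not follow the others after hair plucking. Its FPKM was 136 in wild type against 111 in JunB cKO in unperturbed keratinocytes, a log2 ratio of -0.29 [-0.39 to -0.20]. In plucked skin it was 67.1 and 96.3, a log2 ratio of 0.52 [0.44 to 0.60]. By the FPKM as deposited, no other of the 10 genes was higher in plucked JunB cKO. In wounds it was 25.4 and 35.5, a log2 ratio of 0.48 [0.40 to 0.56]. It stayed under the 2-fold limit in each table. Soat1 (ENSMUSG00000026600.12, chr1:156424525-156474331, minus strand) codes for the acyltransferase that esterifies cholesterol. It had an FPKM of 24.1 in wild type against 13.4 in JunB cKO in unperturbed keratinocytes, a log2 ratio of -0.84 [-1.08 to -0.62]. In plucked skin its FPKM was 217 and 142, a log2 ratio of -0.62 [-0.67 to -0.57]. Its wound values were 64.8 and 89.4, a log2 ratio of 0.46 [0.42 to 0.51]. Soat1 was thus lower, lower and higher in JunB cKO in the 3 tables, by less than 2-fold each time.

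Mgst1 (ENSMUSG00000008540.11, chr6:138140316-138156755, plus strand), a membrane glutathione transferase that is abundant in sebocytes and protects lipids from oxidation, had the highest level but one in plucked wild type and in both genotypes in wounds. Its FPKM was 105 in wild type against 48.4 in JunB cKO in unperturbed keratinocytes, a log2 ratio of -1.11 [-1.32 to -0.92]. After hair plucking it was 289.5 and 118, a log2 ratio of -1.29 [-1.38 to -1.21], the lowest of the 10 genes in that table. In the wounds it stood at 188 and 183, a log2 ratio of -0.04 [-0.09 to 0.01]. Mgst1 was the only one of the 10 genes that was not higher in JunB cKO wounds. Pparg (ENSMUSG00000000440.12, chr6:115360951-115490399, plus strand), codes for the receptor described above as a regulator of sebocytes and adipocytes. Its FPKM was 3.36 in wild type against 3.25 in JunB cKO in unperturbed keratinocytes, from about 89 and about 25 reads, a log2 ratio of -0.05 [-0.77 to 0.58] that became 0.13 relative to the median of expressed loci and -0.30 after subtraction of the receptor median. After hair plucking it was 34.8 and 15.7, a log2 ratio of -1.14 [-1.34 to -0.96]. In wounds it was 24.2 and 37.1, a log2 ratio of 0.61 [0.52 to 0.71]. The interval of Pparg in unperturbed keratinocytes included 0 and reached down to -0.77, near the ratios of Scd1 and Soat1, so that no difference was detectable at this depth and equal levels are not shown either.

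**Figure D2:**
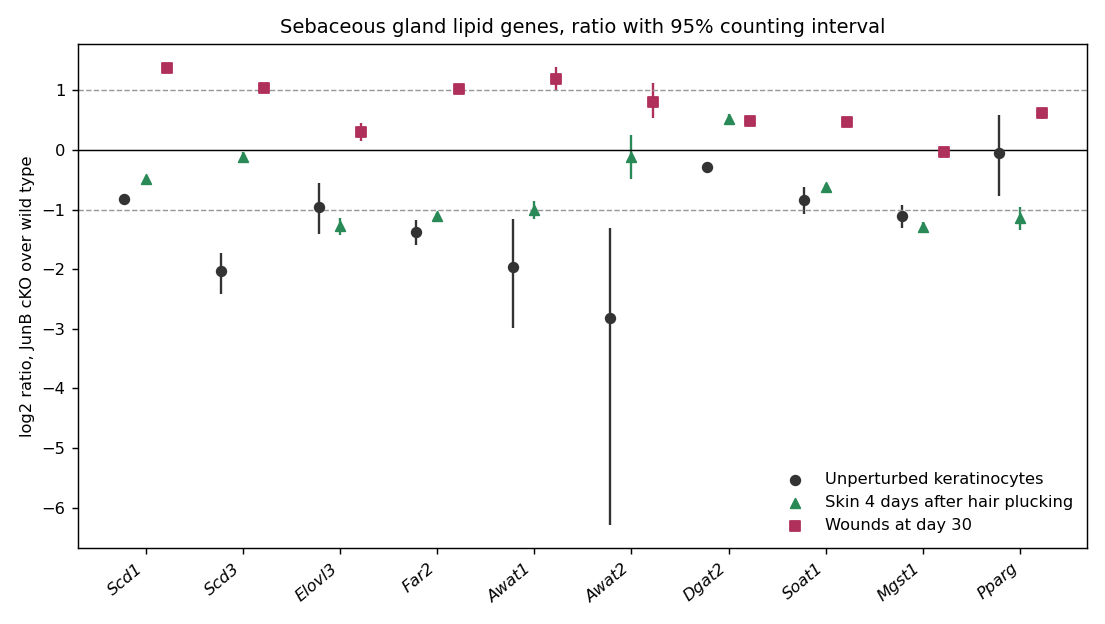
Log2 ratio of JunB cKO over wild type of each gene in unperturbed keratinocytes (black circles), after hair plucking (green triangles) and in wounds (red squares), with 95% intervals that cover counting error only. The dashed lines mark the 2-fold limits. The wound values lie above 0 except Mgst1 at -0.04, and the interval of Awat2 in unperturbed keratinocytes, from -6.29 to -1.30, is the widest.

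The order of the levels can only be given without a spread. In unperturbed wild type it ran from Scd1 over Dgat2, Mgst1, Far2, Soat1, Scd3, Elovl3, Awat1 and Pparg to Awat2. In unperturbed JunB cKO it was Scd1, Dgat2, Mgst1, Soat1, Far2, Elovl3, Scd3, Pparg, Awat1 and Awat2, so that the top 3 were the same in both. In plucked wild type it was Scd1, Mgst1, Soat1, Far2, Awat1, Elovl3, Dgat2, Scd3, Pparg and Awat2, and in plucked JunB cKO Scd1, Soat1, Mgst1, Far2, Dgat2, Scd3, Awat1, Elovl3, Pparg and Awat2. In both genotypes in wounds Scd1, Mgst1, Soat1 and Far2 came first, in this order. Summed over the 10 genes, the FPKM was 741 in wild type against 427 in JunB cKO in unperturbed keratinocytes, 1832 and 1170 after hair plucking, and 760 and 1484 in wounds, of which Scd1 held the largest part in each column. Over the 6 columns, which were normalized in 3 separate tables, Pearson correlations of log2(FPKM + 0.1) between a gene and the mean of the other members are given as a description only, with n = 6. They were 0.97 for Awat1 and Far2, 0.95 for Soat1, 0.94 for Scd3, 0.92 for Awat2, 0.88 for Scd1, 0.87 for Elovl3, 0.83 for Mgst1 and 0.72 for Pparg. Dgat2, at -0.33, was the only one below 0.

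Other sebum lipid genes were described from a list of 26 genes. In unperturbed keratinocytes 19 of them reached 1 FPKM, of which 15 were lower and 4 higher in JunB cKO. Lower by any amount were 52.8% of all loci and 79.6% of those with 10 to 100 FPKM, and 15 of 19 is near the latter share. The median log2 ratio was -0.60 against -0.04 over all loci. At least 2-fold lower were 5 of 19 (26.3%, against 2.37% of all loci), namely Cidea, a lipid droplet protein, at 18.2 in wild type against 6.87 in JunB cKO, Fa2h, a fatty acid hydroxylase, from 58.5 to 26.4, Fabp5, a fatty acid binding protein of sebocytes and keratinocytes, from 102 to 47.6, Elovl5, an elongase of polyunsaturated fatty acids, from 56.5 to 26.6, and Plin2, a lipid droplet coat protein, from 31.4 to 15.6. None of the 19 was at least 2-fold higher, against 22.1% of all loci. After hair plucking 23 reached 1 FPKM, of which 17 were lower, against 48.7% of all loci, and 6 higher. The median log2 ratio was -0.56 against 0.03 over all loci. At least 2-fold lower were 7 (30.4%, against 18.8% of all loci) and at least 2-fold higher 3 (13.04%, against 21.3%). Among the lower genes, Fabp5 stood at 461 in wild type against 75.9 in JunB cKO, Cidea at 73.7 and 21.7, Dgat2l6, a relative of Dgat2, at 9.38 and 2.48, and the fatty acid elongase Elovl6 at 470.1 and 184. The remaining lower genes were Agpat2, Lpin2 and Fads3, at log2 ratios of -1.87, -1.49 and -1.11. The 3 higher genes were all desaturases at a low level, Fads1 at 2.48 and 6.49, Fads2 at 0.422 and 2.43, and Scd4. In wounds 24 reached 1 FPKM, of which 18 had a higher level in JunB cKO, against 51.5% of all loci, and 6 a lower level. The median log2 ratio was 0.39 against 0.02 over all loci. Relative to Krt5 and Krt14, the median was 0.07 and 12 of 24 were higher. At least 2-fold higher were Fa2h, from 15.9 to 38.6, Dgat2l6, from 0.474 to 2.12, and the monoacylglycerol acyltransferase Mogat1, from 0.116 to 2.19, which is 12.5% and near the 9.03% of all loci, and none was at least 2-fold lower, against 7.57%. By the FPKM as deposited, the median of this list thus lay on the same side of 0 as that of the 10 genes in each table. Relative to Krt5 and Krt14, it was -0.60 in unperturbed keratinocytes, -0.30 after hair plucking and close to 0, at 0.07, in wounds. The medians of the 10 genes on that scale were -1.03, -0.55 and 0.38.

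Regulators of the gland and markers of its duct, 16 genes in all, lay nearer to 0. Their median log2 ratio was -0.25 in unperturbed keratinocytes, 0.04 after hair plucking and 0.17 in wounds. Relative to Krt5 and Krt14, the medians were -0.25, 0.30 and -0.16. After hair plucking 14 of 15 genes were higher on that scale, against 8 of 15 by the FPKM as deposited. Of all loci 51.3% were higher by the FPKM as deposited, and no share was computed relative to Krt5 and Krt14. Of those that reached 1 FPKM, 0 of 16 in unperturbed keratinocytes, 0 of 15 after hair plucking and 0 of 15 in wounds were at least 2-fold lower, against 2.37%, 18.8% and 7.57% of all loci, so that the count is near that of all loci in the first and the last. Nr1h3, which codes for the oxysterol receptor LXRα, was at least 2-fold higher in JunB cKO in unperturbed keratinocytes, at 0.369 and 2.26, and after hair plucking, at 2.31 and 8.76. Ihh, a hedgehog ligand made by differentiating sebocytes, was higher in unperturbed keratinocytes, at 0.105 and 1.97. Low genes were often higher in unperturbed JunB cKO, since 35.7% of loci with 1 to 10 FPKM were at least 2-fold higher there, and the part of depth and of the receptor background of 0.543 in these values was not tested.

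**Figure D3:**
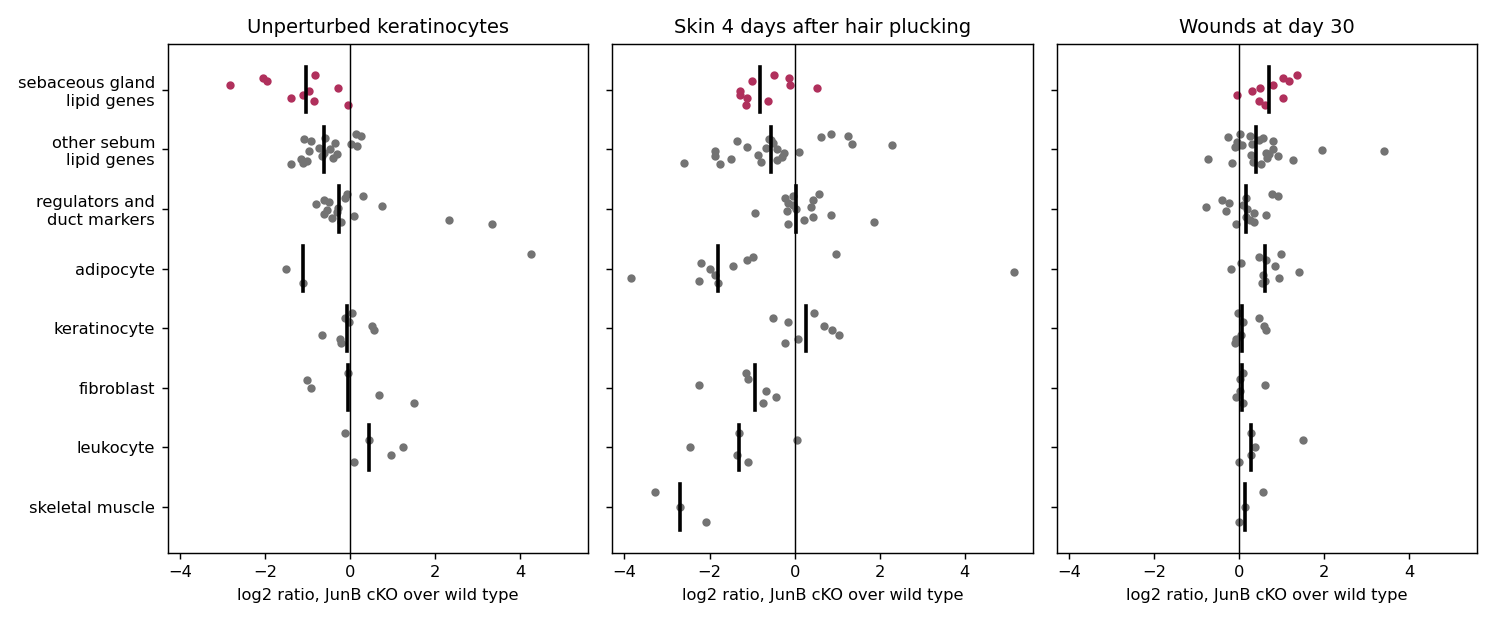
Log2 ratio of JunB cKO over wild type for each gene with at least 1 FPKM in either genotype (points) and the median of each list (vertical bars), in the 3 tables. The sebaceous gland lipid genes (red) have medians of -1.03, -0.81 and 0.71, and the adipocyte markers have -1.10 (from only 3 genes), -1.80 and 0.61.

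Adipocytes share several of these genes, and 11 adipocyte markers were followed. All 11 reached 1 FPKM in plucked skin and in the wound table, where the list median and that of the 10 genes shared a sign. In unperturbed keratinocytes the markers summed to 6.23 FPKM in wild type against 7.97 in JunB cKO, and 3 of 11 reached 1 FPKM. These 3 had a median log2 ratio of -1.10, which does not describe the whole list. Of the markers below 1 FPKM, Plin4 and Car3 were lower in JunB cKO and the rest higher. Lpl, the lipoprotein lipase, stood at 3.33 and 1.502 and Fabp4, the adipocyte fatty acid binding protein, at 1.47 and 0.455, both at least 2-fold lower in JunB cKO. Plin1, the lipid droplet coat of adipocytes, was at 0 and 1.81, and the defining hormone Adipoq at 0.115 and 0.583, near the receptor background of 0.543. Fabp4 in JunB cKO also lay under that background. The adipocyte markers were thus low in both genotypes and differed in direction, and their part in the lower values of the 10 genes was not tested. After hair plucking the adipocyte markers summed to 295 in wild type against 99.1 in JunB cKO, with 9 of 11 lower, against 48.7% of all loci, and 8 of 11 at least 2-fold lower, against 18.8%. These 8 were Cidec, Pck1, Fabp4, Lep, Lpl, Car3, Cfd and Plin4, at log2 ratios from -3.84 for Cidec to -1.11 for Plin4. Fabp4 stood at 125 and 27.4, whereas Adipoq was higher in JunB cKO, at 8.76 and 17.4, and Retn was listed at 0 and 3.46. Of the other dermal cell types, 6 of 6 fibroblast markers were lower and 3 of them, Col1a1, Col1a2 and Col3a1, at least 2-fold lower. Of the leukocyte markers 4 of 5, namely Ptprc, Cd68, Itgam and Csf1r, were at least 2-fold lower (summed FPKM 88.9 and 30.5), as were 3 of 3 skeletal muscle markers, Ckm, Myh4 and Actn3 (40.9 and 5.22). Endothelial markers went both ways, with Pecam1 at 29.5 and 29.6, Tek at 1.59 and 1.86, Kdr at 4.32 and 3.23 and Cdh5, the only one at least 2-fold lower, at 26.0 and 10.6, and their median log2 ratio was -0.20. The 8 keratinocyte markers summed to 7851 and 9554, and Col17a1 was the only one of them at least 2-fold higher. The part of this difference in dermal markers in the lower values of the 10 genes in plucked JunB cKO was not tested.

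In wounds the adipocyte markers summed to 1741 in wild type against 2451 in JunB cKO, with 10 of 11 higher, against 51.5% of all loci. Their median log2 ratio was 0.61, or 0.28 relative to Krt5 and Krt14, where 9 of 11 were higher. Adipoq stood at 58.4 and 116, Plin1 at 20.5 and 28.5, and Retn, the only one at least 2-fold higher (1 of 11, against 9.03% of all loci), at 14.3 and 38.2. Fibroblast, keratinocyte and skeletal muscle markers were higher in sum, at 10532 and 13412, 3404 and 4508, and 737 and 970, but their median log2 ratios were 0.06, 0.07 and 0.14, since few abundant genes such as Col3a1, at 5055 and 7735, and Ckm, at 425 and 632, make up most of the difference. Of the leukocyte markers Cd3e was at least 2-fold higher, at 0.750 and 2.29. The brown fat marker Ucp1, relevant because Elovl3 and Cidea are also brown fat genes, was 0.0963 and 0. The part of adipocytes in the higher values in wounds was not tested. Without Scd1, Dgat2 and Pparg, a choice made after the values were seen, the median log2 ratio was 0.80 over the other 7 genes. Of these 7, 3 were at least 2-fold higher, against 9.03% of all loci. Relative to Krt5 and Krt14, none of them reached the 2-fold limit. Awat1 was highest on that scale, at 0.86, and Elovl3 and Mgst1 were lower in JunB cKO, at -0.03 and -0.37. The part of adipocytes in the values of these 7 genes was not tested either. The same 7 genes had a median of -1.38 in unperturbed keratinocytes and of -1.001 after hair plucking.

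**Figure D4:**
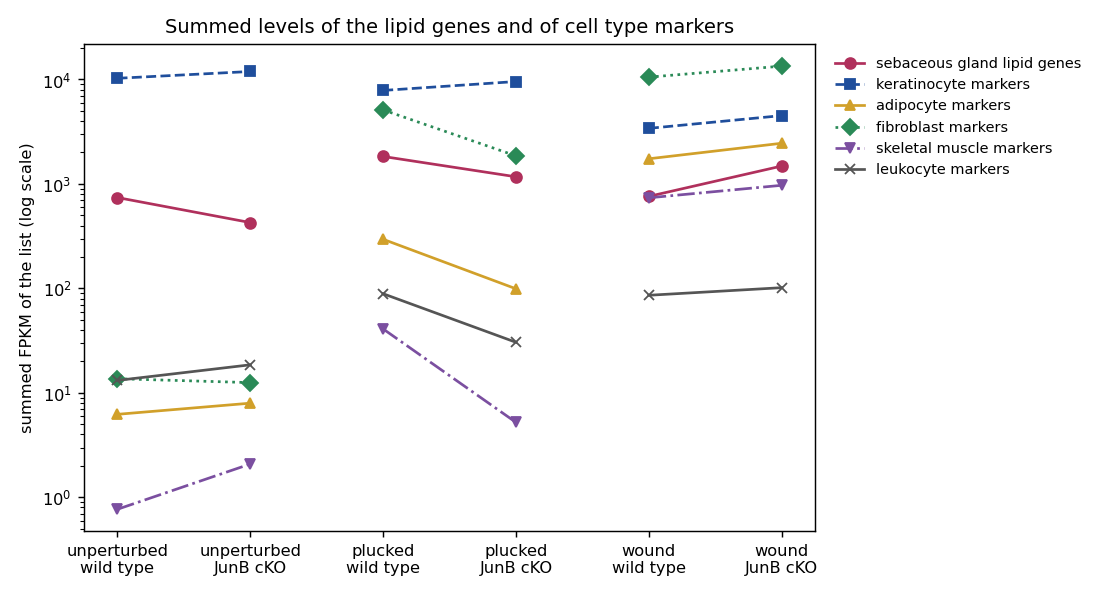
Summed FPKM on a log axis of the 10 sebaceous gland lipid genes and of marker lists in the 6 columns, with lines joining the genotypes of a table. The lipid genes (red circles) go from 741 to 427, from 1832 to 1170 and from 760 to 1484, while the adipocyte markers (yellow triangles) go from 6.23 to 7.97, from 295 to 99.1 and from 1741 to 2451.

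The 10 genes with the course over the 6 columns most like that of the mean of the sebaceous genes, among 10895 symbols with at least 5 FPKM in any column, were Plekha7, Hibadh, Elovl5, Gk5, March5, Hsd3b6, Deaf1, Atp5a1, Wipi2 and Rgl2, with Pearson correlations of log2(FPKM + 0.1) from 0.98 to 0.997 (n = 6 columns of 3 separately normalized tables, a description only). Elovl5 was the only one of them on the list of sebum lipid genes. Its FPKM was 56.5 and 26.6 in unperturbed keratinocytes, 182 and 124 after hair plucking and 61.8 and 85.5 in wounds, in wild type and JunB cKO, respectively. Hsd3b6, a hydroxysteroid dehydrogenase, stood at 3.80 and 1.63, 13.6 and 7.07, and 3.68 and 6.96. All 10 genes were lower in JunB cKO in the first 2 tables and higher in wounds. These directions follow from the choice of the genes by the course of the sebaceous genes.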

How the data were processed

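Total RNA pooled from 3 samples per group was depleted of rRNA and sequenced by the authors as stranded single-end libraries. Reads were trimmed and filtered, mapped to GRCm38 (mm10 in the submitters' processing notes) and assembled with Cufflinks, and Cuffdiff gave the deposited FPKM of each gene locus, 1 value per genotype. Further columns of the tables hold the authors' fold changes, test statistics, p-values, q-values and a mark of significance, which were not used. The 8 samples of the labels gave 6 columns, with 2 wound libraries per genotype behind 1 value, and 0 columns of other samples. The planned limma fit of the wounds was not run for this reason.

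The 10 genes and the lists (other sebum lipid genes, regulators and duct markers, and markers of adipocytes, keratinocytes, fibroblasts, endothelial cells, leukocytes, skeletal muscle and brown fat) were chosen with earlier results of these data known. The 4 endothelial markers summed to 0.254 FPKM in wild type against 2.56 in JunB cKO in unperturbed keratinocytes, 61.3 and 45.3 after hair plucking, and 124 and 168 in wounds. Named were every member, genes of each list at least 2-fold apart with at least 1 FPKM in either genotype, the markers of the labelled cell type, the 10 symbols most like the mean of the members, and Junb. In unperturbed keratinocytes this also gives Col1a2, at log2 -1.01, and Lum, at 1.49, Pecam1, at 2.78, and Cd68, at 1.24, of the other marker lists. Scd2, Adipoq, Plin1, Tek, Kdr, Pecam1, Col3a1, Ckm and Ucp1, where below these limits, were named after their values were seen. Where a symbol had several loci, that with the largest summed FPKM was taken. Ratios used a pseudocount of 0.1. Depth was estimated from sensory receptor loci of 880 to 1000 bp. Alternatives were pseudocounts of 0.01 and 1, a minimum of 1 FPKM, centring on expressed loci, scaling to Krt5 and Krt14, subtraction of the receptor median, summed loci and a 1.5-fold limit. The set without Scd1, Dgat2 and Pparg, the SD without Awat2 and the scaling of the lists to Krt5 and Krt14 were added after the data had been seen. Calculations were tested on simulated data and run in Python 3.11.15 with pandas 2.3.3, numpy 2.4.6, scipy 1.17.1 and biopython 1.88, and plots were drawn with matplotlib 3.10.9. Sequences came from GENCODE M21 transcripts and from RefSeq promoters.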

Additional observations from a re-analysis of the deposited data

Results flagged for a closer look

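The log2 ratio of JunB cKO over wild type went in opposite directions in wounds and in unperturbed keratinocytes for 9 of the 10 genes, or for 8 relative to Krt5 and Krt14, where Elovl3 was lower in both. The share of all loci with opposite directions was not computed. Among loci with 10 to 100 FPKM, 79.6% were lower in unperturbed JunB cKO and 48.5% higher in wounds. For Pparg the interval in unperturbed keratinocytes included 0, and its ratio there turned to 0.13 when centred on expressed loci. The ratio in wounds less that in unperturbed keratinocytes was 3.61 for Awat2, 3.14 for Awat1, 3.07 for Scd3, 2.40 for Far2, 2.19 for Scd1, 1.302 for Soat1, 1.25 for Elovl3, 0.77 for Dgat2 and 0.66 for Pparg. Mgst1 was at -1.11 in unperturbed keratinocytes and at -0.04 in wounds, with an interval that included 0.

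Between wounds and hair plucking, the directions were opposite for 8 genes, or for 5 (Awat1, Far2, Pparg, Scd1 and Soat1) relative to Krt5 and Krt14. Here too the share of all loci with opposite directions was not computed. The interval of Awat2 after hair plucking included 0. The ratio in wounds less that after hair plucking was 2.18 for Awat1, 2.13 for Far2, 1.85 for Scd1, 1.76 for Pparg, 1.58 for Elovl3, 1.16 for Scd3, 1.08 for Soat1 and 0.91 for Awat2. Dgat2 was higher after hair plucking and lower in unperturbed JunB cKO, a difference of 0.81. With 1 value per genotype in each table, none of these differences was tested. The tables also differ in tissue and in their loci, which cannot be told apart from the treatment.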

How the results depend on the processing

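The log2 ratios of single genes were recomputed under 7 alternatives. Of 210 values, 80 repeated the reported ones, since every gene had 1 locus and reached 1 FPKM and since the receptor median was 0 in plucked skin and wounds. Of the other 130, 124 kept their direction and stayed within a 1.5-fold move. Relative to Krt5 and Krt14, the ratio turned to 0.14 for Scd3 and 0.15 for Awat2 after hair plucking and to -0.028 for Elovl3 in wounds, while the genes at least 2-fold lower after hair plucking went from 5 to 2 and those at least 2-fold higher in wounds from 4 to 1. Centred on expressed loci, Pparg turned to 0.13 in unperturbed keratinocytes. At a 1.5-fold limit 8 in place of 5 genes were lower there. Awat2 in unperturbed keratinocytes had -1.50 with a pseudocount of 1 and -4.77 after subtraction of the receptor median. The median over all 10 genes lay between -1.09 and -0.86 in unperturbed keratinocytes, between -0.81 and -0.55 after hair plucking, and between 0.38 and 0.72 in wounds. With a pseudocount of 1, Awat1 after hair plucking was at -0.98 and no longer past the 2-fold limit.

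No paired analysis was possible because only 1 value per genotype is listed for wounds, and for the same reason fits without 1 library were not run. Depth limits the low genes of unperturbed JunB cKO most, above all Awat2 with about 2 reads, Awat1 with about 12 and Pparg with about 25.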
